A study of Mus musculus with 18 samples.

Results

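The genes of the proteasome subunits were followed through the response of muscle satellite cells to injury. All genes were taken whose symbol in the annotation of the array is Psma, Psmb, Psmc, Psmd or Psme with a number, which gave 42 genes of the 18194 genes that had a probe set with 1 symbol. They hold 88 of 34958 such probe sets, and where a gene has several, the brightest on average stands for it. The activator gene Psme2 is not among them, since it had no probe set with 1 symbol. The cells were sorted for syndecan-3 from the tibialis anterior muscle of adult female mice, either wild type (C57Bl/6 x DBA2, B6D2F1/J) or Sdc4-/- (C57Bl/6, homozygous for a deletion of the syndecan-4 gene). They came from uninjured muscle and from muscle 12 h and 48 h after injection of barium chloride, which kills muscle fibres, and each of these 6 groups had 3 arrays. Genotype and strain differ together, so that their effects cannot be told apart, and all groups went through amplification of RNA before hybridization. The authors left out 1 wild type uninjured array because it grouped with the wild type 12 h arrays when arrays were clustered. It is taken here to be replicate 3, and 17 arrays were fitted. Values are log2 units on the scale of GCRMA, a normalization of Affymetrix arrays that corrects for the base composition of the probes, and a difference of 1 stands for a 2-fold change. Levels are not compared between genes, since probe sets bind with different strength.

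The proteasome is the main protease of the cytosol and nucleus and degrades proteins that carry ubiquitin chains. Its 20S core is a barrel of outer rings of alpha subunits and inner rings of beta subunits, and in its constitutive form the beta subunits encoded by Psmb5, Psmb6 and Psmb7 cut peptides. The 19S cap recognizes ubiquitin chains, removes them and unfolds the substrate with a ring of ATPases, and other activators (PA28 from Psme1, Psme2 and Psme3, PA200 from Psme4) can bind the core in its place. In immune cells, and in other cells exposed to interferon, Psmb8, Psmb9 and Psmb10 replace the constitutive cutting subunits and form the immunoproteasome, which favours peptides for presentation on MHC class I.

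The arrays differed before any gene was considered. The mean of the 18 hybridization-control probe sets, which detect RNA added at a fixed amount, was 13.5 to 14.3 at 12 h in wild type cells, 7.86 and 8.94 in the uninjured wild type arrays that were fitted, 12.8 in the array left out, 11.7 to 12.5 at 48 h in wild type cells and 8.74 to 12.3 on the Sdc4-/- arrays. Probe sets above 5 on the log2 scale numbered 2832 to 3982 at 12 h in wild type cells and 5076 to 7864 on the other arrays fitted. Wild type 12 h replicate 2 was lowest, and its value for the 3' actin control was 3.98 against 8.37 or more elsewhere. The 3' Gapdh control, a sign of RNA quality when set beside the 5' one, was 7.85 and 7.73 in uninjured wild type cells and 9.77, 4.64 and 9.76 at 12 h, while the 5' control was 5.23 and 5.90 against 3.86, 3.35 and 3.16. In Sdc4-/- cells at 12 h they were 9.05 to 9.27 (3') and 5.15 to 6.36 (5'). On 1 of its 2 probe sets the targeted gene Sdc4 was 2.41 to 2.60 on the Sdc4-/- arrays, 2.36 and 3.57 in uninjured wild type cells, 2.53 to 3.64 at 12 h and 5.59 to 7.62 at 48 h, and the other read 3.39 to 6.53 on the Sdc4-/- arrays and 6.88 to 8.11 at 48 h in wild type cells. Both set the genotypes apart at 48 h and not at each earlier time. Of 10 satellite cell markers 3 had a mean under 4 in uninjured wild type cells, 7 at 12 h, 5 at 48 h and 6 in each Sdc4-/- group. Pax7, the transcription factor that defines satellite cells, was 5.15 and 4.59 in uninjured wild type cells and 2.38 to 2.79 on the other arrays fitted, at the background. The mean of 9 markers of monocytes and macrophages was 5.58 and 8.57 in uninjured wild type cells. It was 3.89 to 5.0 at 12 h and 9.30 to 9.38 at 48 h. In Sdc4-/- cells it was 9.70 to 10.3 before injury, 8.09 to 8.99 at 12 h and 9.61 to 9.87 at 48 h. Markers of some other cell types fell with the wild type 12 h arrays too, and those of others did not. The mean of 5 fibroblast markers was 7.21 and 8.05 in uninjured wild type cells and 3.56 to 4.54 at 12 h, that of 6 endothelial markers 6.92 and 5.44 against 2.83 to 3.59, and that of 5 markers of smooth muscle and pericytes 9.45 and 8.21 against 4.99 to 6.62. In Sdc4-/- cells these means were 4.67 to 6.24, 4.48 to 5.20 and 6.45 to 8.05 before injury and 3.48 to 5.84, 3.0 to 3.64 and 4.82 to 5.51 at 12 h. The mean of 5 neutrophil markers was 4.92 and 5.77 in uninjured wild type cells and 3.59 to 6.82 at 12 h. In Sdc4-/- cells it was 6.72 to 7.37 before injury and 6.95 to 8.79 at 12 h. That of 4 muscle fibre markers was 4.19 and 5.05 in uninjured wild type cells and 4.05 to 5.20 at 12 h. In Sdc4-/- cells it was 4.34 to 5.47 before injury and 4.0 to 5.75 at 12 h. In a sorted population fewer cells of a type and less RNA per cell cannot be told apart. By the headers of the scanned images, the uninjured wild type and Sdc4-/- arrays were scanned in separate sessions, so that scan session and genotype cannot be told apart there. The labels do not say that arrays of a group came from separate animals, and the p-values measure the spread between arrays, which may be technical.

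Many proteasome genes were lower in wild type cells 12 h post-injury than before injury. Of the 42 genes 24 fell and 1 (Psma8) rose in the limma fit (adjusted p under 0.05 over all probe sets), against 20.8% of all genes called lower and 19.6% called higher. The median change of the 42 genes was -1.86, that of all genes 0.09. Loss of signal was common among the genes that the arrays detect well: of the 6279 genes whose mean on the arrays fitted reached 4, 44.6% were called lower and the median change was -1.56, and 38 of the 42 proteasome genes belong to that set. For 27 of the 42 genes the 3 arrays at 12 h were all below both uninjured arrays, as for 30.1% of all genes. The uninjured array left out had been removed for its expression values. Its median over the 42 genes was 5.26, against 6.57 and 6.52 on the uninjured arrays fitted and 4.03 to 4.62 at 12 h. The alpha ring genes had a median change of -3.06 with 6 of 7 lower. The constitutive beta ring had -2.70 (5 of 7), the 19S ATPases -2.34 (5 of 6), the activators -1.83 (2 of 3), the non-ATPase subunits of the 19S cap -1.34 (4 of 11), the immunoproteasome subunits -1.33 (2 of 3) and the 19S chaperones -0.41, with none of 3 called in limma, also at an unadjusted p under 0.05. The immunoproteasome count depends on the probe set read for Psmb8, whose other probe set fell by 2.67 in limma (adjusted p = 0.00936). The count of lower genes was 12 without wild type uninjured replicate 1 and 18 with all 18 arrays, quantile normalization gave 10 lower and 5 higher, and with the hybridization controls as a covariate only Psmc6 and Psme4 were called. Those controls were 13.5 to 14.3 at 12 h and 7.86 and 8.94 on the uninjured arrays fitted. The covariate thus varies with the comparison itself, and a call lost with it does not decide what lies behind the change. The part of the array-wide loss of signal, of RNA quality and of other cell types in these changes was not tested. Where the 12 h arrays are at the background, the size of a fall is limited by the level before injury, so that the sizes of falls are not ranked between genes.

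**Figure D1:**
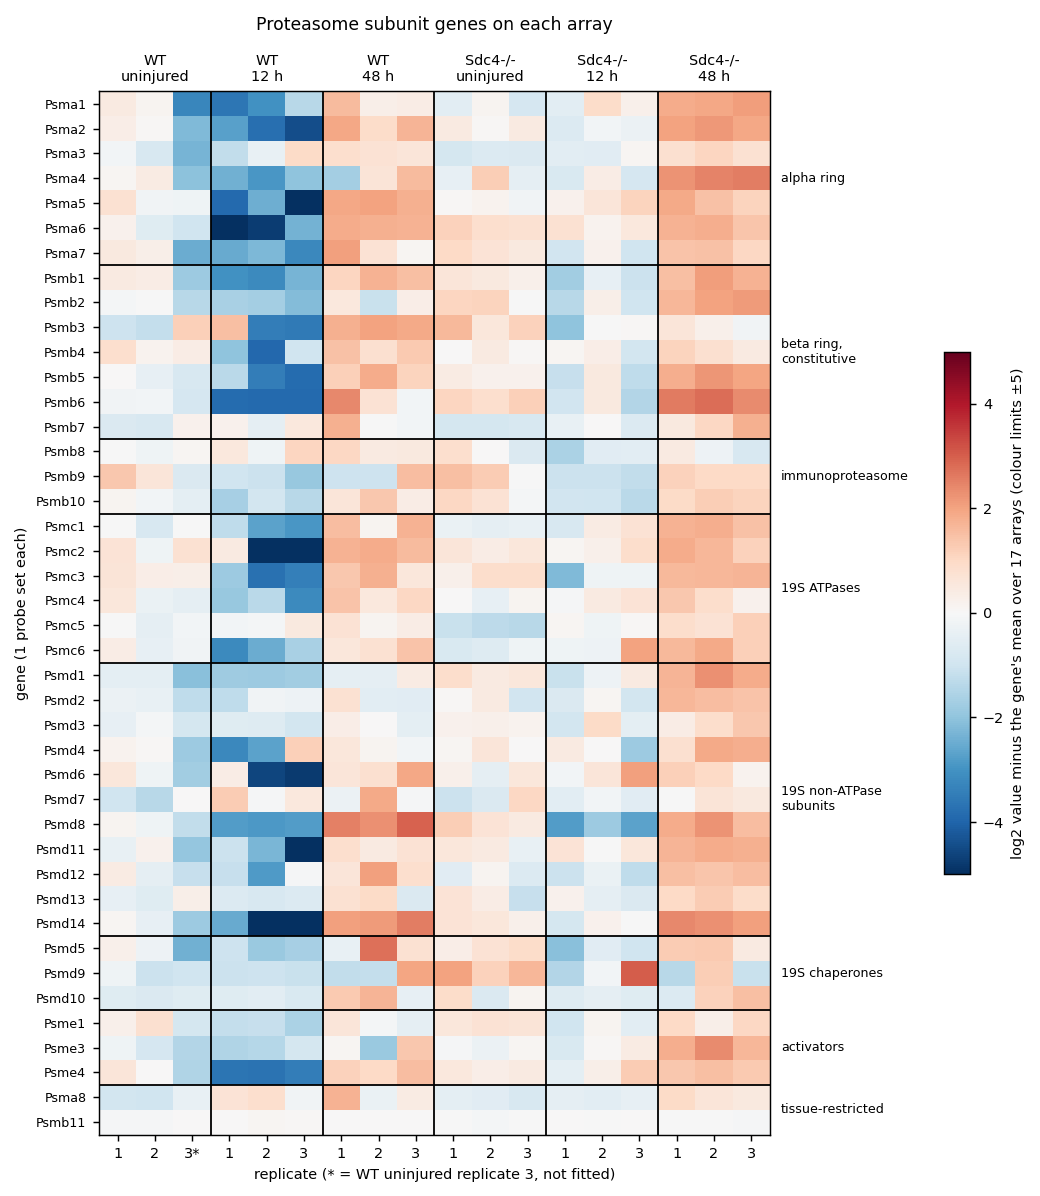
Each row is a proteasome gene and each column an array, in blocks by group; the colour is the log2 value minus the mean of the gene over the 17 arrays fitted, so that blue is below and red above that mean. Most rows are blue at 12 h in wild type cells and red at 48 h in both genotypes, and the 12 h column that is least blue differs from gene to gene.

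Fewer proteasome genes were called at 12 h in Sdc4-/- cells. The limma fit found 3 genes lower (Psmb1, Psmb10 and Psmd8) and 1 higher (Psmc5). The probe set of Psmb8 that was not used was called lower too (-2.82, adjusted p = 0.0148). Of all genes 7.23% were called lower (14.8% of those whose mean reached 4) and 1.48% higher. The share of members called lower is thus near that of all genes and below that of genes whose mean reached 4. The median change of the 42 genes was -0.48, against 0.04 in all genes and -0.63 in those whose mean reached 4. For 13 genes the 12 h arrays were all below the uninjured ones, as for 17.5% of all genes. All 3 lower genes were also lower in wild type cells, where they were 3 of 24, and all 4 calls held whichever array was left out, while without Sdc4-/- 12 h replicate 2 the count was 7. The call of Psmb1 was lost with all 18 arrays (also with the covariate), with the groups compared only, after quantile normalization and with the mean of its probe sets, and that of Psmb10 with the groups compared only and after quantile normalization. The other 21 genes that fell in wild type cells had Sdc4-/- changes between -2.05 (Psmb9) and 1.03 (Psmc6). That a gene was called in wild type cells and not in Sdc4-/- cells does not show a difference, which was tested separately and is given after the classes.

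**Figure D2:**
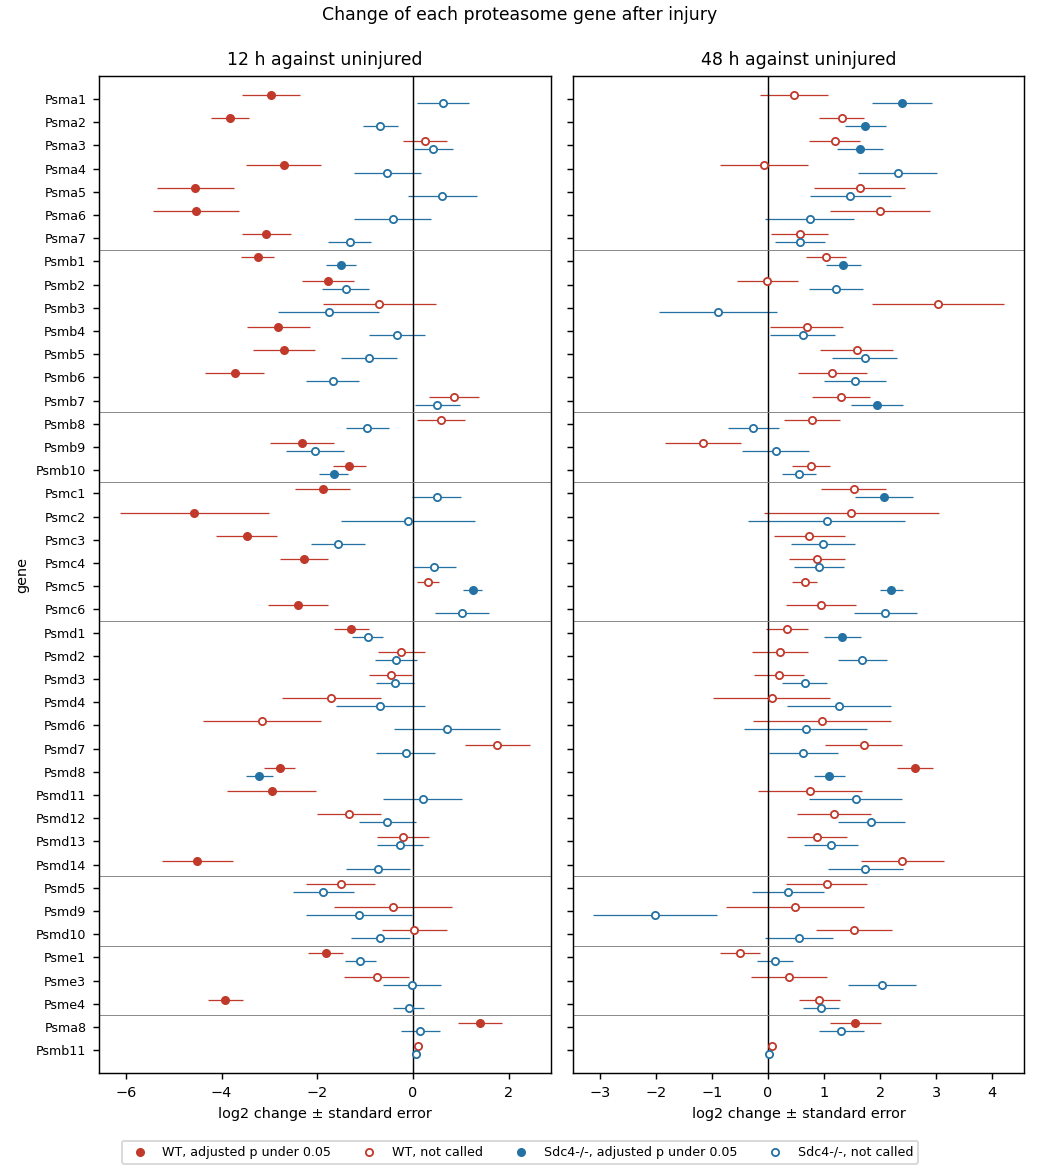
Points are log2 changes against uninjured cells at 12 h (left) and 48 h (right) with the standard error of the limma fit, red for wild type and blue for Sdc4-/-; filled points have an adjusted p under 0.05. At 12 h the filled red points lie between -4.58 (Psmc2) and -1.29 (Psmd1), apart from Psma8 at 1.40, and most blue points lie nearer to 0.

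The start regions of the genes were also read. RefSeq promoters of GRCm38.p6, from 250 bases before to 50 after the start, were matched for 35 of the 42 genes (not for Psma8, Psmb1, Psmb2, Psmb7, Psmc3, Psmd3 and Psmd7). TGANNNNGC, the core to which NRF1 and NRF2 (Nfe2l1 and Nfe2l2) bind, was found on either strand in 20 of 35, against 45.0% of all genes with a promoter. CCGGAAG, the core of ETS-family sites, was found in 12 of 35, against 9.93%. The 6 genes with CCGGAAG that fell at 12 h in wild type cells (Psma6, Psmc1, Psmc2, Psmc6, Psmd11 and Psme4) were 6 of the 21 fallen genes with a promoter, and 6 of the other 14 held it too, so that it did not separate them. Other words searched were TGANTCAGC (1 of 35, Psmb5, against 1.37%), TGACTCAGC (0 against 0.503%), the CCAAT box (14, against 41.1%), the GC box GGGCGG (21, against 38.2%), the interferon-stimulated response element core (4, against 3.99%), the STAT site TTCNNNGAA (2, against 9.55%), the NF-kappa B consensus (0 against 0.174%) and GGTGACC (2, against 4.61%). TGANTCAGC and TGACTCAGC are special cases of TGANNNNGC, and the median GC content was 57.3% in the proteasome promoters and 52.7% in all. A match is a description of the letters and not a site. Below are 5 promoters, with TGANNNNGC and CCGGAAG on either strand in capitals. Psma5, Psmc6 and Psme4 are shown because their 12 h change differed between the genotypes, Psmd8 because it fell in both, and Psmb9 as the immunoproteasome gene that fell in wild type cells and lies next to Tap1 in the MHC region.
Psma5 (chr3:108256676-108256975, plus strand): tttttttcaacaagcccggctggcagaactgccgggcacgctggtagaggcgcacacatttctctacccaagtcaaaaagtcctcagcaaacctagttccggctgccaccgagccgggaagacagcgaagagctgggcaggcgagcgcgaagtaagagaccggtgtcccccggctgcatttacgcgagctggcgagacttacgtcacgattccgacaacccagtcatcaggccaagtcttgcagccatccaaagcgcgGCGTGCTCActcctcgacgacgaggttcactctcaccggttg
Psmc6 (chr14:45329574-45329873, plus strand): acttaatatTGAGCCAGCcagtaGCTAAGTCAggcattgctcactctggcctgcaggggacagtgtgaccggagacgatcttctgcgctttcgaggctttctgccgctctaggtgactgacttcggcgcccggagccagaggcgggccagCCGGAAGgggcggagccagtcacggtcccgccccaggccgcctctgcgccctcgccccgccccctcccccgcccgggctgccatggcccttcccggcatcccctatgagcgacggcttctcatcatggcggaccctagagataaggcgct
Psme4 (chr11:30771525-30771824, plus strand): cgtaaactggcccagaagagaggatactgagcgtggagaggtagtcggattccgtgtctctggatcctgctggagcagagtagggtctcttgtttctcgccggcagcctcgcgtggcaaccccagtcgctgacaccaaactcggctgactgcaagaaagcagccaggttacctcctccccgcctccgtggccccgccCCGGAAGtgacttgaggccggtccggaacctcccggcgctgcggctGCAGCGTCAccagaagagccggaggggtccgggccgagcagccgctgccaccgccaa
Psmd8 (chr7:29180624-29180923, minus strand): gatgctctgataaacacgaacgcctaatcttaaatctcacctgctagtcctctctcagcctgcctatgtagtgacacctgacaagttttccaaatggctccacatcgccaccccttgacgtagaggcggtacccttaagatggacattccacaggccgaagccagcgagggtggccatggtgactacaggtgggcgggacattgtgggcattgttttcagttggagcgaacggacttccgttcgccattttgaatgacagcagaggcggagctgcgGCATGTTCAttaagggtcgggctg
Psmb9 (chr17:34187281-34187580, minus strand): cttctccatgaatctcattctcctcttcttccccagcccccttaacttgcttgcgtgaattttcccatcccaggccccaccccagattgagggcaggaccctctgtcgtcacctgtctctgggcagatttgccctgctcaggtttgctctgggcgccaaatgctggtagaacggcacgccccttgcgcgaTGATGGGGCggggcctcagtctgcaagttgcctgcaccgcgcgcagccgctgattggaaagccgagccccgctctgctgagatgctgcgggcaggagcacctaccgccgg

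The alpha ring closes the ends of the barrel and gates the entry of substrates. Psma2 had values of 7.82 and 7.54 in uninjured wild type cells, 4.78, 3.73 and 3.07 at 12 h and 9.40, 8.41 and 9.17 at 48 h. Every array at 12 h lay below the uninjured ones and every array at 48 h above them. Psma2 fell by 3.82 ± 0.40 (SE; adjusted p = 3.71e-05) at 12 h, and whichever array was left out the adjusted p was at most 0.000843. In the mutant Psma2 was 7.92, 7.55 and 7.92 in uninjured Sdc4-/- cells, 6.79, 7.35 and 7.19 at 12 h and 9.49, 9.67 and 9.44 at 48 h, and its 12 h change of -0.68 ± 0.36 (SE), adjusted p = 0.319, was not called although the groups did not overlap. Psma5 read 10.03 and 9.10 in uninjured wild type cells, 5.39, 6.84 and 2.83 at 12 h and 11.22, 11.31 and 11.07 at 48 h. The 12 h arrays were widely spread and all were below the uninjured ones, a fall of 4.55 ± 0.81 (SE; adjusted p = 0.00108), or 23.4-fold. The Sdc4-/- arrays of Psma5 read 9.35, 9.47 and 9.11 in uninjured Sdc4-/- cells, 9.51, 9.87 and 10.38 at 12 h and 11.18, 10.76 and 10.38 at 48 h, so that at 12 h they were above the uninjured ones instead (0.61 ± 0.72 (SE), adjusted p = 0.676). For Psma7 the values were 7.76 and 7.54 in uninjured wild type cells, 4.72, 5.02 and 4.02 at 12 h and 9.29, 7.98 and 7.37 at 48 h. Again the 12 h arrays were separate and low, with a fall of 3.06 ± 0.50 (SE; adjusted p = 0.000652). Psma7 in the mutant was 8.26, 7.96 and 7.75 in uninjured Sdc4-/- cells, 6.31, 7.46 and 6.25 at 12 h and 8.66, 8.72 and 8.30 at 48 h, lower on every array at 12 h but not called (-1.32 ± 0.45 (SE), adjusted p = 0.115). Psma3 did not share this course. It read 10.64 and 9.97 in uninjured wild type cells, 9.55, 10.40 and 11.73 at 12 h and 11.62, 11.48 and 11.38 at 48 h, with a 12 h change of 0.26 ± 0.46 (SE), adjusted p = 0.685, and the third array at 12 h was as high as those at 48 h. Psma3 in the mutant read 9.87, 10.08 and 10.06 in uninjured Sdc4-/- cells, 10.23, 10.19 and 10.87 at 12 h and 11.56, 11.86 and 11.52 at 48 h, with every 12 h array a little above the uninjured ones and every 48 h array further above. Of the others Psma6 fell by 4.53 ± 0.90 (SE; adjusted p = 0.00218), Psma1 by 2.97 ± 0.61 (SE; adjusted p = 0.00269) and Psma4 by 2.70 ± 0.79 (SE; adjusted p = 0.0183), the last no longer called without wild type uninjured replicate 1 or wild type uninjured replicate 2 or wild type 12 h replicate 2 (adjusted p up to 0.0967).

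Psmb1, Psmb2, Psmb3 and Psmb4 encode beta subunits that do not cut peptides. Psmb1 had values of 7.82 and 7.74 in uninjured wild type cells, 4.35, 4.17 and 5.06 at 12 h and 8.44, 9.10 and 8.90 at 48 h. The 12 h arrays were the lowest and the 48 h arrays the highest, with no overlap, and the gene fell by 3.25 ± 0.35 (SE; adjusted p = 4.17e-05) at 12 h. Psmb1 also fell at 12 h in Sdc4-/- cells, where it read 7.97, 7.85 and 7.62 in uninjured Sdc4-/- cells, 5.65, 6.95 and 6.32 at 12 h and 8.87, 9.47 and 9.12 at 48 h, by 1.50 ± 0.31 (SE; adjusted p = 0.0123). Psmb4 read 9.90 and 9.24 in uninjured wild type cells, 7.07, 5.14 and 8.07 at 12 h and 10.55, 9.87 and 10.37 at 48 h and fell by 2.81 ± 0.65 (SE; adjusted p = 0.00553). The 12 h arrays lay below all others of that genotype, but without wild type uninjured replicate 1 the fall was not called (adjusted p = 0.0558). Psmb4 in the mutant was 9.09, 9.53 and 9.16 in uninjured Sdc4-/- cells, 9.19, 9.43 and 8.16 at 12 h and 10.21, 9.89 and 9.53 at 48 h, with overlap between uninjured and 12 h arrays (-0.34 ± 0.58 (SE), adjusted p = 0.785). Psmb2 read 5.01 and 5.07 in uninjured wild type cells, 3.47, 3.40 and 2.94 at 12 h and 5.65, 4.00 and 5.42 at 48 h and fell by 1.77 ± 0.54 (SE; adjusted p = 0.0237). Its low 12 h arrays did not overlap the uninjured ones, but the call ended without wild type uninjured replicate 1 or wild type uninjured replicate 2 or wild type 12 h replicate 3 (adjusted p up to 0.101). Psmb2 in the mutant was 6.19, 6.23 and 5.07 in uninjured Sdc4-/- cells, 3.72, 5.42 and 4.13 at 12 h and 6.78, 7.11 and 7.23 at 48 h, with a 12 h change of -1.41 ± 0.49 (SE), adjusted p = 0.122. Psmb3 was split within the group: it read 7.75 and 7.58 in uninjured wild type cells, 10.29, 5.34 and 5.27 at 12 h and 10.57, 10.81 and 10.70 at 48 h. The first 12 h array was close to those at 48 h and the other two were below the uninjured ones, so that the change of -0.70 ± 1.18 (SE), adjusted p = 0.662, was not called. Psmb3 in the mutant was 10.42, 9.34 and 9.96 in uninjured Sdc4-/- cells, 6.80, 8.79 and 8.84 at 12 h and 9.38, 9.07 and 8.60 at 48 h, with the lowest value on the first 12 h array.

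Psmb5, Psmb6 and Psmb7 encode the constitutive cutting subunits. Psmb6, the caspase-like subunit, read 6.59 and 6.62 in uninjured wild type cells, 2.90, 2.87 and 2.85 at 12 h and 9.15, 7.48 and 6.62 at 48 h. The values at 12 h were close to each other and at the background, so that the size of the fall, measured as 3.73 ± 0.62 (SE; adjusted p = 0.000695), is limited by the background, and the call held whichever array was left out. In the mutant Psmb6 was 7.85, 7.60 and 7.94 in uninjured Sdc4-/- cells, 5.79, 7.26 and 5.30 at 12 h and 9.34, 9.56 and 9.13 at 48 h, below the uninjured arrays at 12 h but above background, and not called (-1.68 ± 0.55 (SE), adjusted p = 0.103). Psmb5, the chymotrypsin-like subunit, was 6.40 and 5.96 in uninjured wild type cells, 5.02, 2.91 and 2.53 at 12 h and 7.56, 8.22 and 7.51 at 48 h. The 12 h arrays were again lowest (-2.70 ± 0.65 (SE), adjusted p = 0.00678), and without wild type uninjured replicate 1 the call was lost (adjusted p = 0.0571). Psmb5 in Sdc4-/- cells was 6.78, 6.59 and 6.60 in uninjured Sdc4-/- cells, 5.24, 6.88 and 5.09 at 12 h and 8.19, 8.60 and 8.34 at 48 h, with the second 12 h array above the uninjured ones. Psmb7, the trypsin-like subunit, had low values throughout, 2.87 and 2.81 in uninjured wild type cells, 3.80, 3.16 and 4.11 at 12 h and 5.39, 3.57 and 3.46 at 48 h. None of the 12 h arrays was below the uninjured ones (0.85 ± 0.52 (SE), adjusted p = 0.212). The uninjured values were near the background in both genotypes, so that a fall could not be measured and the size of a rise is limited. Psmb7 was 2.73, 2.72 and 2.80 in uninjured Sdc4-/- cells, 3.23, 3.61 and 2.93 at 12 h and 4.08, 4.62 and 5.39 at 48 h, and at 48 h it rose by 1.95 ± 0.46 (SE; adjusted p = 0.0324).

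Of the immunoproteasome counterparts, Psmb10 fell at 12 h in both genotypes and Psmb9 in wild type cells. Psmb10, the counterpart of Psmb7, read 6.81 and 6.52 in uninjured wild type cells, 5.02, 5.73 and 5.26 at 12 h and 7.26, 8.01 and 7.02 at 48 h. At 12 h the arrays were lower without overlap (-1.33 ± 0.34 (SE), adjusted p = 0.00957), and without wild type uninjured replicate 1 the call ended (adjusted p = 0.0764). Quantile normalization turned the wild type change of Psmb10 to 0.79 (adjusted p = 0.311). It read 7.67, 7.38 and 6.56 in uninjured Sdc4-/- cells, 5.68, 5.68 and 5.29 at 12 h and 7.60, 7.89 and 7.78 at 48 h, and the fall at 12 h was 1.65 ± 0.30 (SE; adjusted p = 0.00603). Psmb9, the counterpart of Psmb6, read 6.23 and 5.48 in uninjured wild type cells, 3.87, 3.79 and 2.95 at 12 h and 3.82, 3.84 and 6.41 at 48 h. It was low at 12 h, and at 48 h 2 arrays stayed low while the third was above the uninjured ones. Psmb9 fell at 12 h by 2.31 ± 0.67 (SE; adjusted p = 0.0182), a call lost without wild type uninjured replicate 1 or wild type 12 h replicate 3 (adjusted p up to 0.13). The Sdc4-/- arrays of Psmb9 read 6.36, 6.12 and 4.85 in uninjured Sdc4-/- cells, 3.79, 3.77 and 3.62 at 12 h and 6.03, 5.85 and 5.87 at 48 h. The 3 values at 12 h were separate and low, with a change that was not called (-2.05 ± 0.60 (SE), adjusted p = 0.0674). The difference between the genotypes in the 12 h change was 0.26 ± 0.90 (SE), adjusted p = 0.869 for Psmb9 and -0.33 ± 0.46 (SE), adjusted p = 0.664 for Psmb10. Psmb8, the counterpart of Psmb5, depended on the probe set. The one with the higher mean read 5.15 and 4.97 in uninjured wild type cells, 5.72, 4.97 and 6.26 at 12 h and 6.21, 5.64 and 5.68 at 48 h, without a fall (0.59 ± 0.51 (SE), adjusted p = 0.376). It read 6.01, 5.21 and 4.47 in uninjured Sdc4-/- cells, 3.58, 4.60 and 4.65 at 12 h and 5.62, 4.91 and 4.38 at 48 h (-0.95 ± 0.45 (SE), adjusted p = 0.27). The other probe set of Psmb8 read 5.99 and 5.40 in uninjured wild type cells, 2.80, 3.46 and 2.81 at 12 h and 4.43, 4.45 and 6.70 at 48 h. Its Sdc4-/- values were 6.88, 6.63 and 4.95 in uninjured cells, 3.37, 3.88 and 2.74 at 12 h and 6.63, 6.87 and 6.81 at 48 h. That probe set followed the course of Psmb9, with low arrays at 12 h in both genotypes, and fell by 2.67 (adjusted p = 0.00936) and by 2.82 (adjusted p = 0.0148) in wild type and Sdc4-/- cells. Of the macrophage markers, 4 of 9 had a mean under 4 at 12 h in wild type cells (Adgre1, Cd68, Csf1r and Itgam), against 1 of 9 in uninjured cells (Itgam), 1 of 9 at 48 h (Cd74), and none of 9 in the mutant at any time. In the mutant the mean of the 9 markers was 9.70 to 10.3 before injury, 8.09 to 8.99 at 12 h and 9.61 to 9.87 at 48 h. Its 12 h arrays were thus below the others. The part of macrophages in these changes was not tested.

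**Figure D3:**
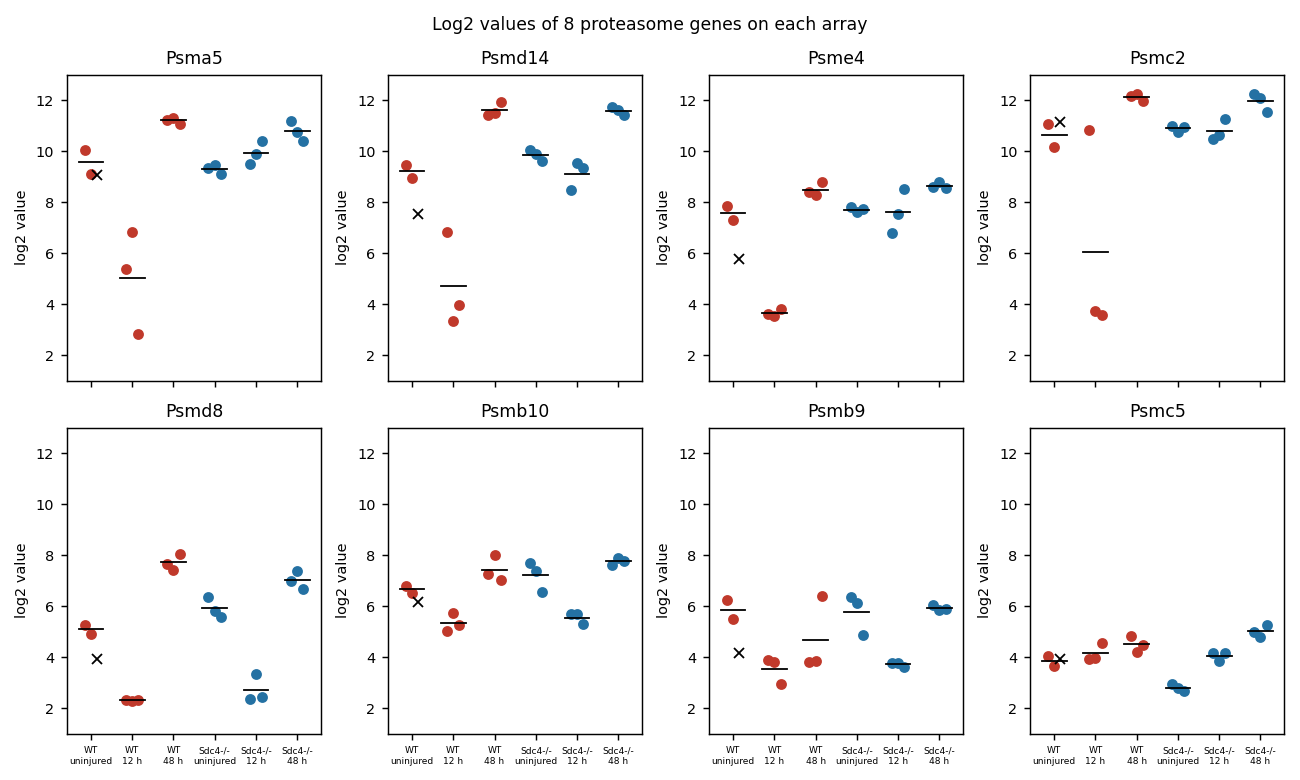
Log2 values of 8 genes on each array, by group (red wild type, blue Sdc4-/-); the black line is the mean of the arrays fitted and the cross is wild type uninjured replicate 3, which was not fitted. Psma5, Psmd14 and Psme4 were lower on the wild type 12 h arrays than on all others fitted, Psmd8, Psmb10 and Psmb9 were low at 12 h in both genotypes, 1 array of Psmc2 stayed at 10.8, and Psmc5 was lowest in uninjured Sdc4-/- cells.

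The 19S ATPases form the ring that unfolds substrates and opens the gate of the core. Psmc3 read 7.70 and 7.40 in uninjured wild type cells, 5.25, 3.32 and 3.65 at 12 h and 8.41, 8.83 and 7.62 at 48 h. At 12 h its arrays were separate and low, with a fall of 3.48 ± 0.63 (SE; adjusted p = 0.00128) and an adjusted p of at most 0.016 whichever array was left out. In the mutant Psmc3 was 7.30, 7.96 and 7.96 in uninjured Sdc4-/- cells, 4.85, 6.84 and 6.83 at 12 h and 8.67, 8.73 and 8.75 at 48 h, lower on each 12 h array but not called (-1.56 ± 0.57 (SE), adjusted p = 0.14). Psmc4 read 10.74 and 9.86 in uninjured wild type cells, 8.28, 8.82 and 6.98 at 12 h and 11.61, 10.69 and 11.22 at 48 h. The 12 h arrays lay below the uninjured ones (-2.27 ± 0.50 (SE), adjusted p = 0.00442), a call that ended without wild type uninjured replicate 1 (adjusted p = 0.0585). Psmc4 in Sdc4-/- cells was 10.20, 9.76 and 10.30 in uninjured Sdc4-/- cells, 10.12, 10.61 and 10.86 at 12 h and 11.54, 11.05 and 10.40 at 48 h, with overlap at 12 h (0.44 ± 0.45 (SE), adjusted p = 0.626). Psmc6 read 9.54 and 8.76 in uninjured wild type cells, 5.98, 6.71 and 7.56 at 12 h and 9.75, 9.94 and 10.59 at 48 h and was again lowest at 12 h (-2.40 ± 0.63 (SE), adjusted p = 0.0107). Without wild type uninjured replicate 1 its adjusted p was 0.0951. Psmc6 in the mutant read 8.41, 8.55 and 8.98 in uninjured Sdc4-/- cells, 8.96, 8.91 and 11.17 at 12 h and 10.79, 11.07 and 10.36 at 48 h, with the third 12 h array as high as those at 48 h (1.03 ± 0.56 (SE), adjusted p = 0.334). Psmc2 fell by 4.58 ± 1.56 (SE; adjusted p = 0.0364), but unevenly: the 12 h arrays read 10.8, 3.72 and 3.57, against 11.1 and 10.2 in uninjured cells. Its call ended without wild type uninjured replicate 1 or wild type uninjured replicate 2 or wild type 12 h replicate 2 or wild type 12 h replicate 3 (adjusted p up to 0.166). The split depended on the probe set. Another of Psmc2 (mean 6.48) read 6.74 and 6.78 in uninjured wild type cells and 4.16, 2.54 and 2.58 at 12 h. That probe set fell by 3.66 in the limma fit (adjusted p = 0.000394). Psmc1 fell by 1.89 ± 0.58 (SE; adjusted p = 0.0235) and lost its call without wild type uninjured replicate 1 or wild type 12 h replicate 2 or wild type 12 h replicate 3 (up to 0.166). Psmc5 was the ATPase gene without a fall. It read 4.05 and 3.64 in uninjured wild type cells, 3.93, 3.96 and 4.57 at 12 h and 4.81, 4.22 and 4.46 at 48 h, with a 12 h change of 0.31 ± 0.23 (SE), adjusted p = 0.303. It read 2.96, 2.77 and 2.68 in uninjured Sdc4-/- cells, 4.17, 3.84 and 4.15 at 12 h and 4.97, 4.80 and 5.25 at 48 h. The uninjured mutant arrays were the lowest of all 17 and near the background. Psmc5 rose by 1.25 ± 0.20 (SE; adjusted p = 0.00304) at 12 h and by 2.20 ± 0.20 (SE; adjusted p = 7.08e-05) at 48 h. The sizes of these rises are limited by the background.

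The non-ATPase subunits of the 19S cap include ubiquitin receptors, scaffold subunits and the enzyme that removes ubiquitin. Psmd14, that enzyme, read 9.46 and 8.95 in uninjured wild type cells, 6.83, 3.32 and 3.95 at 12 h and 11.41, 11.48 and 11.91 at 48 h. At 12 h it lay well below the uninjured arrays and at 48 h above them, with a fall of 4.50 ± 0.74 (SE; adjusted p = 0.000681) at 12 h and an adjusted p of at most 0.0106 whichever array was left out. In the mutant Psmd14 was 10.04, 9.90 and 9.61 in uninjured Sdc4-/- cells, 8.49, 9.55 and 9.32 at 12 h and 11.74, 11.62 and 11.41 at 48 h, and its 12 h arrays were below the uninjured ones by less (-0.73 ± 0.67 (SE), adjusted p = 0.58). Psmd8, a subunit of the lid, read 5.27 and 4.92 in uninjured wild type cells, 2.32, 2.27 and 2.33 at 12 h and 7.66, 7.41 and 8.06 at 48 h. All 3 values at 12 h were at the background, and the 48 h arrays were above the uninjured ones. The measured fall at 12 h was 2.79 ± 0.32 (SE; adjusted p = 5.76e-05), its size limited by the background, and Psmd8 rose by 2.62 ± 0.32 (SE; adjusted p = 0.000282) at 48 h. The Sdc4-/- values were 6.36, 5.82 and 5.56 in uninjured Sdc4-/- cells, 2.34, 3.33 and 2.44 at 12 h and 6.99, 7.36 and 6.68 at 48 h, with the same order of groups and no overlap, a fall of 3.21 ± 0.28 (SE; adjusted p = 5.18e-05) at 12 h and a rise of 1.09 ± 0.28 (SE; adjusted p = 0.0491) at 48 h. Psmd8 had the smallest adjusted p of the members in Sdc4-/- cells at 12 h. Psmd1, a scaffold of the base, read 4.23 and 4.23 in uninjured wild type cells, 2.94, 2.92 and 2.98 at 12 h and 4.29, 4.29 and 5.12 at 48 h. It fell by 1.29 ± 0.37 (SE; adjusted p = 0.0168) to values near the background, and without wild type uninjured replicate 1 or wild type uninjured replicate 2 the call ended (adjusted p up to 0.0786). Psmd1 in Sdc4-/- cells was 5.60, 5.17 and 5.29 in uninjured Sdc4-/- cells, 3.61, 4.47 and 5.16 at 12 h and 6.43, 7.0 and 6.59 at 48 h, lower on every 12 h array but not called (-0.94 ± 0.33 (SE), adjusted p = 0.124). Psmd13, a lid subunit, had the largest p of this class at 12 h. It read 5.69 and 5.49 in uninjured wild type cells, 5.42, 5.29 and 5.43 at 12 h and 6.88, 7.08 and 5.40 at 48 h (-0.21 ± 0.54 (SE), adjusted p = 0.777) and, in the mutant, 6.77, 6.46 and 4.94 in uninjured Sdc4-/- cells, 6.33, 5.67 and 5.39 at 12 h and 7.12, 7.38 and 7.04 at 48 h (-0.26 ± 0.48 (SE), adjusted p = 0.796). After quantile normalization the wild type change of Psmd13 at 12 h was 1.85 (adjusted p = 0.0139), a call in the other direction. Psmd11 fell by 2.95 ± 0.92 (SE; adjusted p = 0.0255), but not without wild type uninjured replicate 1 or wild type uninjured replicate 2 (adjusted p up to 0.131). The other changes not called at 12 h in wild type cells ranged from -3.16 (Psmd6) to 1.77 (Psmd7). The uninjured wild type values of Psmd7, 2.84 and 2.46, were near the background. Psmd6 was split within the group, like the probe set used for Psmc2, with 9.22, 4.23 and 4.03.

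Psmd5, Psmd9 and Psmd10 encode chaperones that bind ATPases during assembly of the cap and leave the finished proteasome. Psmd5 read 5.80 and 5.28 in uninjured wild type cells, 4.51, 3.69 and 3.87 at 12 h and 5.15, 8.29 and 6.30 at 48 h. It was lower on every 12 h array without being called (-1.51 ± 0.72 (SE), adjusted p = 0.114). In Sdc4-/- cells the values were 5.85, 6.27 and 6.45 in uninjured Sdc4-/- cells, 3.43, 4.97 and 4.55 at 12 h and 6.81, 6.84 and 5.99 at 48 h, with lower arrays at 12 h (-1.87 ± 0.64 (SE), adjusted p = 0.118). Psmd10, also known as gankyrin, read 4.18 and 4.06 in uninjured wild type cells, 4.17, 4.25 and 4.02 at 12 h and 6.11, 6.48 and 4.37 at 48 h, with uninjured and 12 h arrays close to each other (0.02 ± 0.68 (SE), adjusted p = 0.98). In the mutant it was 5.70, 4.07 and 4.91 in uninjured Sdc4-/- cells, 4.15, 4.34 and 4.16 at 12 h and 4.10, 5.92 and 6.30 at 48 h (-0.68 ± 0.61 (SE), adjusted p = 0.574). Psmd9 read 4.05 and 3.22 in uninjured wild type cells, 3.22, 3.25 and 3.18 at 12 h and 3.04, 3.08 and 6.24 at 48 h and, in Sdc4-/- cells, 6.28, 5.45 and 5.93 in uninjured Sdc4-/- cells, 2.81, 4.13 and 7.32 at 12 h and 2.91, 5.51 and 3.19 at 48 h. Its values were scattered within 3 of the 6 groups, and neither 12 h change was called (-0.41 ± 1.23 (SE), adjusted p = 0.81 in wild type and -1.13 ± 1.10 (SE), adjusted p = 0.61 in Sdc4-/- cells).

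Of the activators Psme4 (PA200) had the lowest p of any member in wild type cells at 12 h. It read 7.85 and 7.29 in uninjured wild type cells, 3.60, 3.55 and 3.79 at 12 h and 8.41, 8.26 and 8.79 at 48 h. The 12 h arrays were close to each other and far below the uninjured ones, and the 48 h arrays were above them. Psme4 fell by 3.92 ± 0.36 (SE; adjusted p = 1.71e-05) at 12 h, or 15.2-fold, with an adjusted p of at most 0.000428 whichever array was left out. It read 7.79, 7.60 and 7.72 in uninjured Sdc4-/- cells, 6.79, 7.54 and 8.52 at 12 h and 8.59, 8.78 and 8.56 at 48 h, with 12 h arrays on both sides of the uninjured ones (-0.09 ± 0.32 (SE), adjusted p = 0.897). Psme1 (PA28 alpha), which interferon induces together with the immunoproteasome, read 6.19 and 6.75 in uninjured wild type cells, 4.77, 4.78 and 4.38 at 12 h and 6.56, 5.86 and 5.51 at 48 h. It was lower at 12 h without overlap and fell by 1.83 ± 0.36 (SE; adjusted p = 0.00211), a call that held whichever array was left out. The mutant values were 6.51, 6.67 and 6.60 in uninjured Sdc4-/- cells, 4.96, 6.10 and 5.41 at 12 h and 6.93, 6.24 and 6.99 at 48 h, with the 12 h arrays also below the uninjured ones (-1.10 ± 0.32 (SE), adjusted p = 0.0658). Psme3 (PA28 gamma, the nuclear form) read 5.05 and 4.42 in uninjured wild type cells, 3.76, 3.82 and 4.36 at 12 h and 5.36, 3.39 and 6.60 at 48 h, and at 12 h its arrays were lower without being called (-0.76 ± 0.68 (SE), adjusted p = 0.397). Psme3 in the mutant was 5.18, 4.98 and 5.36 in uninjured Sdc4-/- cells, 4.50, 5.31 and 5.65 at 12 h and 7.08, 7.61 and 6.91 at 48 h, highest at 48 h (2.03 ± 0.61 (SE), adjusted p = 0.0918). Of the alternative core subunits of other tissues Psmb11, the thymus subunit, was at the background, between 2.25 and 2.47 on the 17 arrays. Psma8, the testis subunit, read 2.75 and 2.69 in uninjured wild type cells, 4.37, 4.51 and 3.5 at 12 h and 5.41, 3.33 and 4.11 at 48 h. It rose by 1.40 ± 0.46 (SE; adjusted p = 0.0298) at 12 h and by 1.56 ± 0.46 (SE; adjusted p = 0.0433) at 48 h, from values at the background. The 12 h call was lost without wild type uninjured replicate 1 or wild type uninjured replicate 2 or wild type 12 h replicate 1 or wild type 12 h replicate 2 (adjusted p up to 0.118) and the 48 h call without wild type uninjured replicate 1 or wild type uninjured replicate 2 or wild type 48 h replicate 1 or wild type 48 h replicate 3 (up to 0.17). In the mutant Psma8 was 3.18, 3.10 and 2.88 in uninjured Sdc4-/- cells, 3.22, 3.14 and 3.25 at 12 h and 4.65, 4.27 and 4.18 at 48 h (0.15 ± 0.41 (SE), adjusted p = 0.865 at 12 h).

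The result at 12 h in wild type cells depended on which probe set of a gene was read. Of the 88 probe sets 32 were called lower and 9 higher. All 32 had a mean of at least 4 (53 probe sets of 38 genes), and all 9 a mean under 4 (35 probe sets of 20 genes). Over all genes, with 1 probe set each, 20.8% were called lower and 19.6% higher. Of the 3793 lower genes 2801 had a mean of at least 4, and of the 3564 higher genes 210. Genes called higher were thus mostly dim in the whole series too. Among the 22 proteasome genes with several probe sets the signs differed in 16, and 6 had probe sets called both ways. Psmd11 is an example: the probe set used fell by 2.95, while a dim one (mean 2.98) was 2.36 higher (adjusted p = 7.93e-06). Psma6 is another, where a second bright probe set fell by 3.16 (adjusted p = 1.01e-05), another with a mean of 6.59 was 0.58 higher (adjusted p = 0.232) and a dim one was 0.85 higher (adjusted p = 0.0134), so that bright probe sets of 1 gene disagreed as well. In Sdc4-/- cells 5 probe sets were called lower at 12 h and 1 higher, against 7.23% and 1.48% of all genes. One symbol can thus stand for several transcripts or for probes at the background, and which of these holds was not tested.

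**Figure D4:**
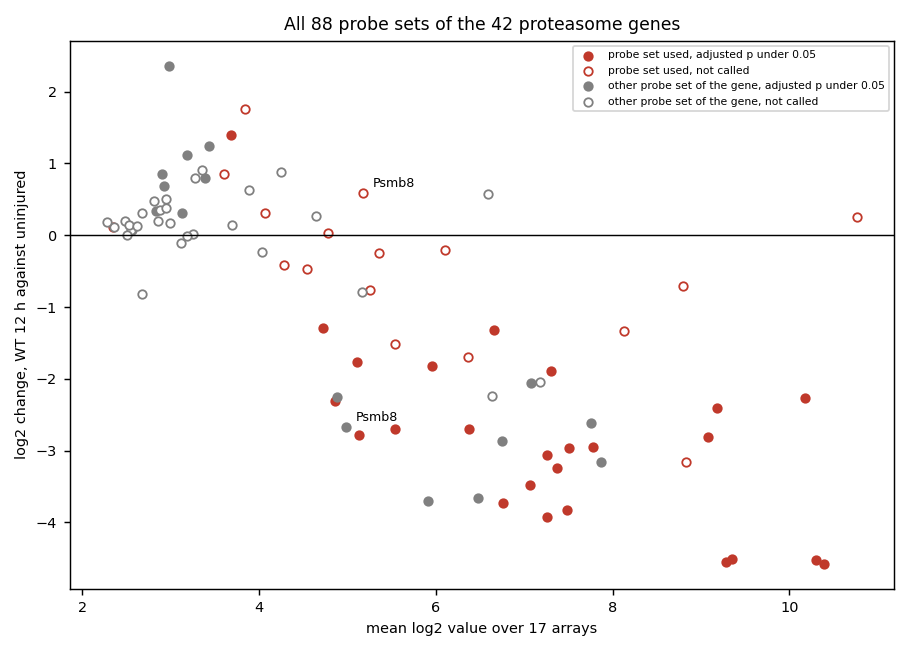
Each of the 88 probe sets is a point at its mean log2 value over 17 arrays and its log2 change at 12 h in wild type cells; red is the probe set used for a gene, grey the others, filled where the adjusted p was under 0.05. All filled points below 0 have a mean of at least 4 and all filled points above 0 a mean under 4. The Psmb8 probe sets lie on both sides of 0. Over all genes 210 of the 3564 called higher had a mean of at least 4.

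Between the genotypes 1 gene was called before injury, 19 at 12 h and 2 at 48 h. In uninjured cells only Psmc5 differed (-1.04 ± 0.23 (SE), adjusted p = 0.0239), lower in Sdc4-/- cells against 2.96% of all genes called lower. Its Sdc4-/- values there were near the background. It was not called without wild type uninjured replicate 1 or Sdc4-/- uninjured replicate 2 or Sdc4-/- uninjured replicate 3 (adjusted p up to 0.242). At 12 h 19 of the 42 genes were higher in Sdc4-/- than in wild type cells, against 8.68% of all genes and 24.1% of those whose mean reached 4. The median difference was 1.32, against -0.08 in all genes and 0.72 in those whose mean reached 4. The arrays were separate, with Sdc4-/- higher, for 21 genes (11.8% of all genes). Among the 19 genes called were Psma6 (5.21 ± 0.80 (SE), adjusted p = 0.000906), Psma5 (4.90 ± 0.72 (SE), adjusted p = 0.0007) and Psmc2 (4.75 ± 1.39 (SE), adjusted p = 0.0344). The arrays of Psmc2 overlapped between the genotypes. The Psmc2 call was lost without any 1 of the 6 arrays other than wild type 12 h replicate 1 (adjusted p up to 0.124). By class 5 of 7 alpha ring, 4 of 7 constitutive beta ring, 5 of 6 ATPase, 4 of 11 non-ATPase and 1 of 3 activator genes were higher. No immunoproteasome gene was called in limma (1 had an unadjusted p under 0.05, lower in Sdc4-/- cells), with differences of -1.37 ± 0.45 (SE), adjusted p = 0.0565 for Psmb8, 0.19 ± 0.60 (SE), adjusted p = 0.871 for Psmb9 and 0.21 ± 0.30 (SE), adjusted p = 0.688 for Psmb10. The direction for Psmb8 depended on the probe set. The other one had a mean at 12 h of 3.02 in wild type and 3.33 in Sdc4-/- cells. The count was 14 without Sdc4-/- 12 h replicate 2 and 2 with the hybridization controls as a covariate.

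The difference between the genotypes in the change from uninjured to 12 h was itself called for 9 genes, against 6.32% of all genes and 12.9% of those whose mean reached 4. All 9 fell in wild type cells. In Sdc4-/- cells Psma1, Psma5, Psmc4 and Psmc6 had positive changes (0.44 to 1.03, none called), and the others had smaller negative changes than in wild type cells. Given as the Sdc4-/- change minus the wild type change, it was 5.16 ± 1.08 (SE), adjusted p = 0.0102 for Psma5, 4.10 ± 1.20 (SE), adjusted p = 0.0468 for Psma6, 3.83 ± 0.49 (SE), adjusted p = 0.000737 for Psme4, 3.77 ± 1.00 (SE), adjusted p = 0.0306 for Psmd14, 3.60 ± 0.81 (SE), adjusted p = 0.0149 for Psma1, 3.43 ± 0.84 (SE), adjusted p = 0.0218 for Psmc6, 3.14 ± 0.54 (SE), adjusted p = 0.00412 for Psma2, 2.72 ± 0.68 (SE), adjusted p = 0.0235 for Psmc4 and 1.75 ± 0.47 (SE), adjusted p = 0.0328 for Psmb1. Psma2 and Psme4 were called whichever array was left out. The count was 2 without wild type uninjured replicate 1, 15 without wild type 12 h replicate 1, 5 without Sdc4-/- 12 h replicate 2, 3 with all 18 arrays and 2 with the hybridization controls as a covariate.

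**Figure D5:**
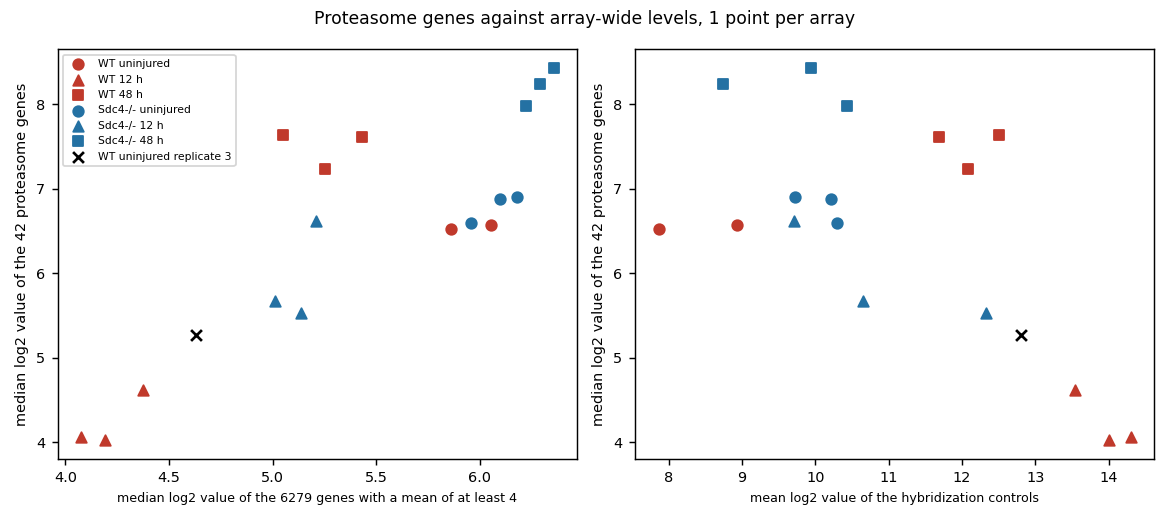
Each point is an array, with the median log2 value of the 42 proteasome genes on the vertical axis, against the median of the 6279 genes whose mean reached 4 (left) and against the mean of the hybridization controls (right). The wild type 12 h arrays are lowest in both panels (4.03 to 4.62) and have the highest hybridization controls, and the 48 h arrays of both genotypes lie highest (7.24 to 8.43).

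At 48 h the values of most genes lay above those of uninjured cells. In wild type cells the median difference between 48 h and 12 h was 2.59 for the 42 genes. It was -0.06 for all genes and 0.81 for those whose mean reached 4. Of the 42 genes 27 were higher at 48 h than at 12 h, against 9.27% of all genes and 26.3% of those whose mean reached 4. Among them were Psmd14 (6.90 ± 0.67 (SE), adjusted p = 2.69e-05), Psma6 (6.52 ± 0.80 (SE), adjusted p = 0.000202) and Psma5 (6.18 ± 0.72 (SE), adjusted p = 0.000136), and without 1 array at a time the count was 21 to 27. It was 7 with the groups compared only and 17 after quantile normalization and with the hybridization controls as a covariate. Against uninjured cells the median change at 48 h was 0.90 in wild type and 1.17 in Sdc4-/- cells, while the median of all genes whose mean reached 4 was -0.24 and 0.22. Few genes were called: 2 rose in wild type cells (Psmd8 and Psma8), against 5.47% of all genes and 5.18% of those whose mean reached 4, a share near that of the members, and 9 in Sdc4-/- cells, against 2.65% and 5.16%. The arrays were nonetheless separate for many members, since all arrays at 48 h were above all uninjured ones for 25 genes in wild type cells (44.2% of all genes) and for 30 in Sdc4-/- cells (21.1%). The wild type share rests on 2 uninjured arrays. In the mutant the genes that rose were Psma1 (2.39 ± 0.54 (SE), adjusted p = 0.0252), Psmc5, Psmc1 (2.07 ± 0.52 (SE), adjusted p = 0.0422), Psmb7, Psma2 (1.74 ± 0.36 (SE), adjusted p = 0.0156), Psma3 (1.64 ± 0.41 (SE), adjusted p = 0.042), Psmb1 (1.34 ± 0.31 (SE), adjusted p = 0.029), Psmd1 (1.32 ± 0.33 (SE), adjusted p = 0.0403) and Psmd8. Only Psmc5 was called whichever array was left out, the count then being 1 to 4. No immunoproteasome gene was called at 48 h in limma in either genotype. At an unadjusted p under 0.05 only Psmb10 in wild type cells passed (0.77 ± 0.34 (SE), adjusted p = 0.166). Between the genotypes at 48 h Psmb2 (2.02 ± 0.49 (SE), adjusted p = 0.0344) and Psmd1 (2.11 ± 0.33 (SE), adjusted p = 0.00366) were higher in Sdc4-/- cells, against 4.70% of all genes and 10.2% of those whose mean reached 4, so that the members' share is near that of all genes. Psmd1 was called whichever array was left out, while Psmb2 was not called without any 1 of the 6 arrays other than wild type 48 h replicate 1 (adjusted p up to 0.118). The difference in the 48 h change was called for Psmc5 alone (1.55 ± 0.31 (SE), adjusted p = 0.0151), against 3.64% of all genes called higher. It was not called without wild type uninjured replicate 1 (adjusted p up to 0.0748). Its size is limited by the background, which the uninjured Sdc4-/- arrays of Psmc5 were near. All comparisons with uninjured cells of a genotype share its uninjured arrays, and the wild type comparisons at 12 h share its 12 h arrays.

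Genes that act with the proteasome were read from lists in the same way. At 12 h in wild type cells, where 20.8% of all genes were called lower, 44.6% of those whose mean reached 4, and 19.6% of all genes higher, 2 of 12 assembly factors and partners of the 19S cap fell and 1 rose, shares below those of all genes. Usp14, an enzyme that trims ubiquitin chains on the cap, fell by 4.40 (adjusted p = 2.1e-05), and Pomp, which matures the beta rings, by 3.09 (adjusted p = 0.00109), while Psmg4, a chaperone of the alpha ring, rose by 1.47 (adjusted p = 0.00404). Usp14 changed by 1.30 in Sdc4-/- cells (adjusted p = 0.0644), with a difference between the genotypes of 5.70 (adjusted p = 0.000145). Of 10 transcription factors and ubiquitin shuttles 6 fell in wild type cells, against the same 44.6%. Among them were Ubqln2, a shuttle to the proteasome (-4.73, adjusted p = 0.000415), and Nfe2l2, the transcription factor NRF2 (-3.28, adjusted p = 0.000271). Nfe2l1, the factor NRF1 that induces subunit genes when proteasomes are blocked, was at -0.32 (adjusted p = 0.0513). Vcp, the segregase that extracts ubiquitinated proteins, fell by 1.79 (adjusted p = 0.00486) and at 48 h rose by 1.49 (adjusted p = 0.0314). Of 11 genes of peptide loading on MHC class I 9 fell at 12 h in wild type cells, also against 44.6%. Calr, a chaperone of class I assembly, fell by 5.44 (adjusted p = 7.93e-06), Irf1, an inducer of the immunoproteasome, by 4.27 (adjusted p = 0.00086), and H2-D1, a class I heavy chain, by 3.52 (adjusted p = 0.00094). In Sdc4-/- cells all 11 had negative changes, between -1.64 and -0.04, and none was called in limma (3 had an unadjusted p under 0.05). Of the muscle ubiquitin ligases, which mark atrophy, Trim63 in wild type cells at 12 h rose by 0.83 (adjusted p = 0.00225) and Fbxo32 was at -0.25 (adjusted p = 0.765).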

How the data were processed

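Per the study's methods, RNA of the sorted cells was amplified linearly, hybridized to Affymetrix mouse genome arrays and read with GCOS. The authors normalized the intensities with GCRMA and deposited them as log2 values of 45101 probe sets on 18 arrays, with versions not given in the sources used here. Arrays have no read depth, so that their number limits the precision. Probe sets were named through the platform annotation, where 34958 had 1 symbol, 932 several and 9211 none.

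The 6 groups were fitted together in limma 3.58.1 (R 4.3.3) on 17 arrays, with 11 residual degrees of freedom, and p-values were adjusted by Benjamini-Hochberg over all 45101 probe sets. The fit was tested on simulated data first. A gene was called at an adjusted p under 0.05. Named genes were, per class, those with the lowest p at 12 h in each genotype and the largest in wild type cells, plus the cutting, immunoproteasome, activator and tissue-restricted subunits. Members and lists were chosen with earlier results of these data known. Promoter sequences came from RefSeq. Wild type uninjured replicate 3 was taken as the array the authors left out, and the replicate number was tested as a block. Same-numbered arrays did not deviate together (correlations of -0.09 to 0.19 over 21 pairs), and no arrays held identical values. Alternatives were a fit with all 18 arrays, with the groups compared only, with eBayes trend, quantile normalization, a shift to each array's 75th percentile, a filter, the mean of a gene's probe sets, the hybridization controls as a covariate and the arrays left out in turn.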

Additional observations from a re-analysis of the deposited data

Results flagged for a closer look

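The change from uninjured to 12 h differed between the genotypes for 9 genes by the test of the difference itself in limma. As the Sdc4-/- change minus the wild type change on the log2 scale, it was 3.60 for Psma1, 3.14 for Psma2, 5.16 for Psma5, 4.10 for Psma6, 1.75 for Psmb1, 2.72 for Psmc4, 3.43 for Psmc6, 3.77 for Psmd14 and 3.83 for Psme4. Of all genes 6.32% were called higher by this difference, and 12.9% of those whose mean reached 4. Only Psma2 and Psme4 were called whichever array was left out. The change from uninjured to 48 h differed for Psmc5, by 1.55, against 3.64% of all genes called higher. That call was lost without wild type uninjured replicate 1, and the uninjured Sdc4-/- arrays of Psmc5 were near the background.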

How the results depend on the processing

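The 17 arrays limit what can be called, and the wild type 12 h comparison rests on 2 uninjured arrays. The hybridization controls did not overlap between its 12 h and uninjured arrays, so that the covariate varies with that comparison. For the count of proteasome genes called at 12 h in wild type cells (25), leaving out 1 array at a time gave 12 to 26, all 18 arrays 18, the groups compared only 13, quantile normalization 15 (10 lower and 5 higher, against 24 and 1), the hybridization controls as a covariate 2, and all 18 arrays with that covariate (added with the data in view) 0. At 12 h in Sdc4-/- cells (4) the range was 4 to 7, with 2 for the groups compared only, 2 after quantile normalization, and 7 with the filter on a mean of 4 and with the mean of probe sets. At 48 h in wild type cells (2) it was 1 to 4, with 1 for all 18 arrays, 4 for the groups compared only, 1 after quantile normalization, 17 after the 75th percentile shift, 1 with the covariate, 6 with the mean of probe sets and 5 with all 18 arrays and the covariate. That shift raised the median change of all genes from 0.10 to 0.42. At 48 h in Sdc4-/- cells (9) it was 1 to 4, with 3 for all 18 arrays, 16 for the groups compared only, 4 with trend, 2 after quantile normalization, 4 without moderation and 3 with all 18 arrays and the covariate. At 48 h against 12 h in wild type cells (27) it was 21 to 27, with 7 for the groups compared only, 17 after quantile normalization, 17 with the covariate and 16 with all 18 arrays and the covariate.

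Between the genotypes in uninjured cells (1) the range was 0 to 1, and the count was 0 for the groups compared only, with trend, after quantile normalization, with the filter and with the covariate. At 12 h (19) it was 14 to 20, with 3 for the groups compared only, 8 after quantile normalization (1 lower, 7 higher), 2 with the covariate and 4 with all 18 arrays and the covariate. At 48 h (2) it was 1 to 4, with 1 for all 18 arrays, 1 after quantile normalization (lower), 7 after the shift (2 lower, 5 higher), 5 with the filter, 0 with the covariate and 0 with all 18 arrays and the covariate. The 12 h difference (9) ranged from 2 to 15, with 3 for all 18 arrays, 2 for the groups compared only, 3 after quantile normalization (1 lower, 2 higher), 2 with the covariate, 4 with the mean of probe sets and 0 with all 18 arrays and the covariate. The 48 h difference (1) ranged from 0 to 1, with 2 for the groups compared only, 2 after the shift, 0 with the filter, 0 with the covariate and 0 with all 18 arrays and the covariate. The cause of these shifts was not tested.

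After quantile normalization the 12 h change in wild type cells turned to 0.79 for Psmb10 (adjusted p = 0.311) and 1.85 for Psmd13 (adjusted p = 0.0139). With the covariate that of Psmb2 was 0.66 (adjusted p = 0.88). With all 18 arrays and the covariate it was 0.63 for Psma1 (adjusted p = 0.969) and 0.066 for Psmb2 (not called), and the 12 h difference of Psmb1 was -0.16 (adjusted p = 0.969).

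With the replicate number as a block, 23 genes were called at 12 h in wild type cells, and the one count that moved by over 1.5 times was that between the genotypes at 48 h, from 2 to 1. The numbers did not pair the arrays.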
